A study of Mus musculus with 163 samples.

Results

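The genes described here are the 9 that encode the enzymes and granule proteins of prohormone processing in the deposited table: *Pcsk1*, *Pcsk2*, *Cpe*, *Pam*, *Scg5*, *Pcsk1n*, *Scg2*, *Chga* and *Vgf*. They were picked by name, as 9 of the 12187 genes in the table, and all 9 were measured. The values come from single neurons of the mediobasal hypothalamus of young adult male *Pomc-eGFP* mice (strain C57/BL6 Tg(Pomc-EGFP)1Low), fed ad libitum. Each cell was sorted by green fluorescence, which *Pomc* regulatory sequences drive in these mice, and gave 1 sequencing library. All cells thus carry the same transgene and were gated on the same fluorescence, and a cell in which the transgene was silent would not be among them. No source names the animal, plate or batch of a cell, so the cells stand as 1 sample. Spreads are therefore SDs over cells, shares carry exact Clopper-Pearson 95% intervals that cover counting error only, a count of 0 is given with the share that 3 cells would make, and no p-value is given.

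A first group of 48 cells had *Agrp*, the gene of the agouti-related peptide that antagonises melanocortin receptors, above 10 log2RPM (log2 of RPM, the reads of a gene scaled to a fixed total of reads per cell). They are called Agrp-high. The lowest of them stood at 10.12 log2RPM and the highest of all other cells, called Agrp-low, at 9.99 log2RPM. The Agrp-low cells were split by *Pomc*, the gene of the melanocortin precursor, into 19 Pomc-low cells (below 5 log2RPM), 47 Pomc-intermediate cells and 49 Pomc-high cells (10 log2RPM or more). The *Pomc* values on either side of these limits were 4.98 and 5.07 log2RPM for the lower limit and 9.99 and 10.19 log2RPM for the upper. A gene was called present in a cell at 5 RPM, which is the dotted line in the plot of the levels by group.

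Peptide hormones are made as long precursors and are cut inside secretory granules. *Pcsk1* and *Pcsk2* encode the prohormone convertases PC1/3 and PC2, which cut precursors after basic residues; in POMC, PC1/3 makes the early cuts that give ACTH and β-lipotropin, and PC2 makes later cuts toward α-MSH and β-endorphin. *Cpe* encodes carboxypeptidase E, which removes the basic residues left at the new ends, and *Pam* the monooxygenase that amidates peptides such as α-MSH. *Scg5* encodes 7B2, the chaperone and inhibitor of PC2, and *Pcsk1n* encodes proSAAS, an inhibitor of PC1/3. *Scg2*, *Chga* and *Vgf* encode the granins secretogranin II, chromogranin A and VGF, which are granule cargo and are themselves cut into peptides.

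Of 5 neuronal genes, *Snap25*, *Stmn2* and *Map2* were at 5 RPM or more in every cell, *Tubb3* in 98.2% and *Syt1* in 88.96%, with *Syt1* in 95.8% of Agrp-high, all Pomc-low, 95.7% of Pomc-intermediate and 71.4% of Pomc-high cells. Depth over the genes of the table lay between 1.46 and 41.9 M reads per cell, with medians of 8.45 M in Agrp-high and 8.09 M in Agrp-low cells. Markers of other cell types were also present: 69 cells had 3 or more of the 12 measured ones, 24 had *Prl*, the pituitary hormone prolactin, and *Mbp*, of oligodendrocytes, was present in 77.3%. The 4 microglial and 3 endothelial markers looked for are not among the genes of the table, and of 6 astrocyte markers only 1 is.

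*Cpe*, *Scg5*, *Pcsk1n* and *Scg2* were present in every cell, *Chga* in 98.2% of cells and *Pam* in 96.9%. *Vgf* was the member most often absent, present in 86 cells (52.8%, interval 44.8% to 60.6%). No cell had fewer than 6 of the 9 members: 5 cells had 6, 34 had 7, 74 had 8 and 50 had all 9. The set of processing genes was thus nearly complete in each cell, and what varied was the convertases and *Vgf*.

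**Figure D1:**
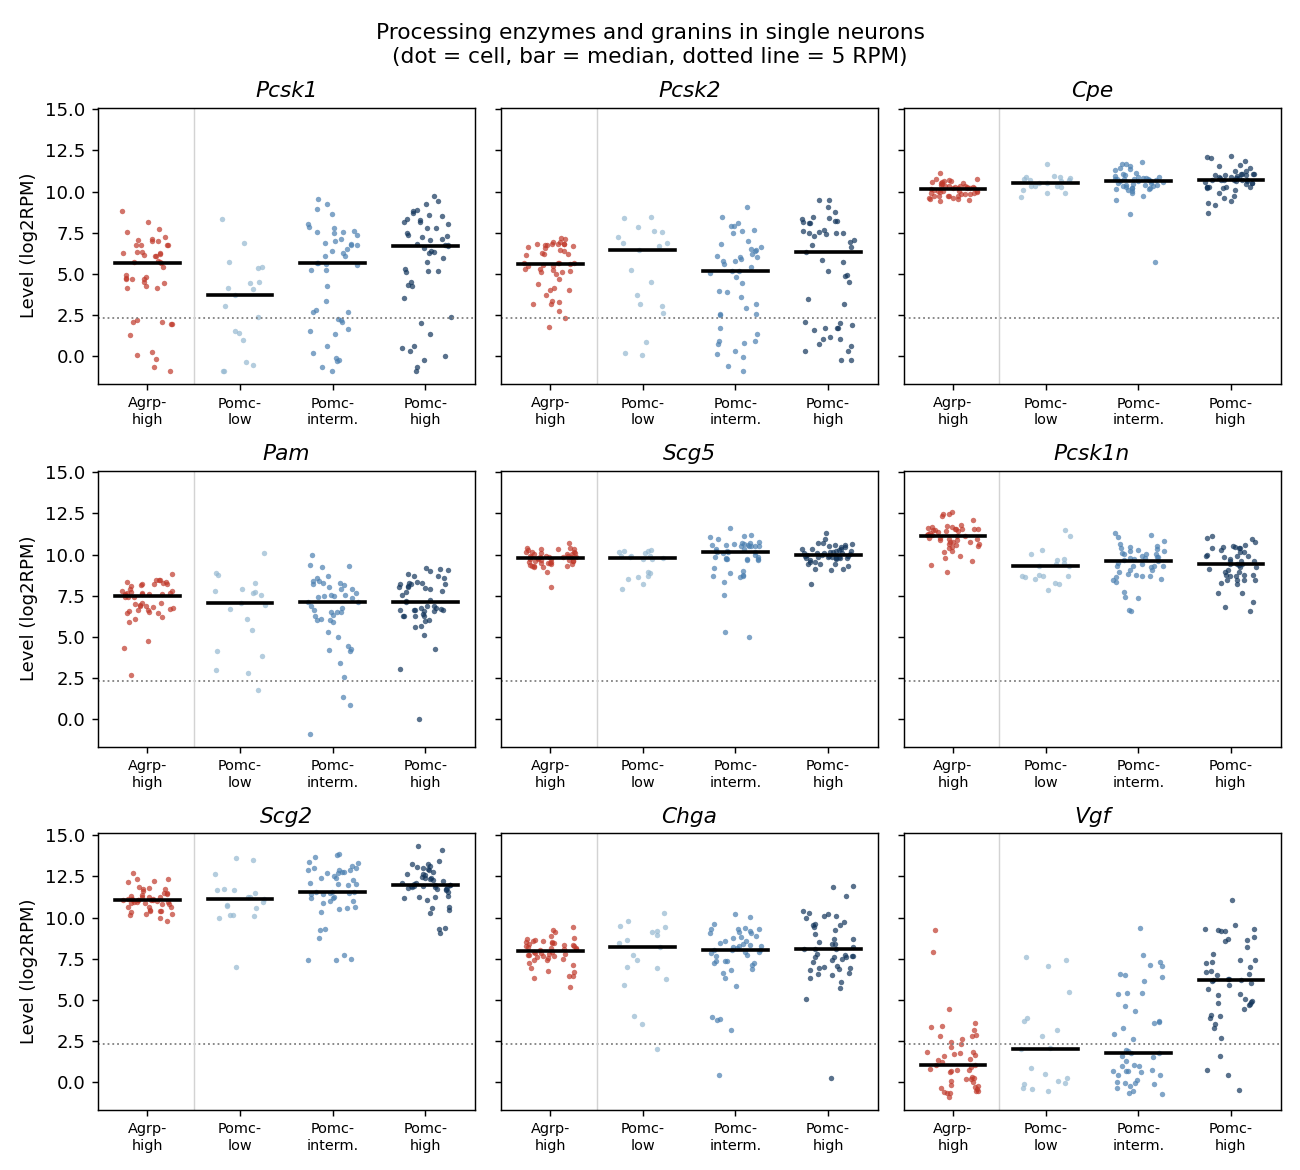
Levels of the 9 genes in log2RPM, with a dot for each cell, a bar at the median of each group and a dotted line at 5 RPM. *Pcsk1n* stands higher in the 48 Agrp-high cells (median 11.14 log2RPM) than in the 3 groups of Agrp-low cells, *Vgf* is highest in the 49 Pomc-high cells (median 6.20 log2RPM), and *Pcsk1*, *Pcsk2* and *Vgf* spread from the floor to above 9 log2RPM.

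Levels of different genes were compared per kilobase of exon. The granin *Scg2* had the highest median, 1129 RPM per kb over all cells, and stood above *Scg5* (598 RPM per kb) in 84.7% of them. *Scg5* and *Cpe* (553 RPM per kb) were close neighbours, with *Scg5* the higher per kb in 61.96% of cells and interquartile ranges of 479 to 790 and 422 to 689 RPM per kb. *Pcsk1n* followed at 439 RPM per kb and *Chga* at 95.1 RPM per kb. The convertases and the amidating enzyme were far lower, with *Pam* at 11.96, *Pcsk1* at 9.02 and *Pcsk2* at 6.36 RPM per kb, and their interquartile ranges overlapped. *Vgf* came last at 1.99 RPM per kb, with an upper quartile of 22.3 RPM per kb. *Scg2* was the most abundant member per kb in 64.4% of cells, *Pcsk1n* in 34 cells, *Scg5* in 14, *Cpe* in 9 and *Chga* in 1.

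Both convertases were present in 35 of 48 Agrp-high cells (72.9%, interval 58.2% to 84.7%) and in 62 Agrp-low cells (53.9%, interval 44.4% to 63.2%). *Pcsk1* without *Pcsk2* was found in 2 of 48 Agrp-high cells (4.17%, interval 0.509% to 14.3%) and in 24 Agrp-low cells (20.9%, interval 13.9% to 29.4%). *Pcsk2* without *Pcsk1* was found in 11 of 48 Agrp-high cells (22.9%, interval 12.03% to 37.3%) and in 23 Agrp-low cells (interval 13.1% to 28.5%), intervals that overlap widely. No Agrp-high cell lacked both convertases, which allows a share of up to 6.25% (3 of 48; the exact upper bound is 7.40%), and 6 Agrp-low cells did (5.22%). *Pcsk2* itself was present in 46 of 48 Agrp-high cells (95.8%, interval 85.7% to 99.5%) and in 85 Agrp-low cells (73.9%, interval 64.9% to 81.7%). In the 47 Agrp-low cells with *Pomc* in the range of the Agrp-high cells it was present in 37 (78.7%). The interval there, 64.3% to 89.3%, overlaps that of the Agrp-high cells. After reads were thinned to the same depth in every cell, *Pcsk2* was present in 95.6% of Agrp-high and 74.3% of Agrp-low cells.

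The mean level of *Pcsk2* nevertheless differed little. It ran from 1.80 through a median of 5.63 to 7.16 log2RPM in Agrp-high cells and from -0.91 through 5.74 to 9.50 log2RPM in Agrp-low cells, with means of 5.40 ± 1.41 and 4.89 ± 2.93 log2RPM (SD; difference 0.52). The Agrp-high cells fill a narrow band inside the range of the others: 27 Agrp-low cells lay below the lowest of them. *Pcsk1* had close mean levels in Agrp-high cells (4.86 ± 2.47 log2RPM, present in 37 of 48 cells) and Agrp-low cells (4.93 ± 3.09 log2RPM, present in 74.8%), with a difference of -0.08 log2RPM. Within cells 67 to 98, where 5 were Agrp-high and 27 Agrp-low, the difference was -2.59 log2RPM for *Pcsk1* and 1.06 log2RPM for *Pcsk2*, both past 1. It was 0.59 log2RPM for *Pcsk1* in cells from 99 on and -0.51 log2RPM for *Pcsk2* in cells 1 to 66.

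The convertases did not go together across cells. Over all cells, which share a transgene and a range of depths, the Spearman correlation (rho) of their levels was -0.04. The 97 cells with both compare with 98.9 expected from the product of the separate shares of the convertases. In Agrp-high cells that product gave 35.5 cells where 35 were counted, and in Agrp-low cells 63.6 where 62 were counted. By group, rho was -0.19 in Agrp-high, 0.25 in Pomc-low, -0.32 in Pomc-intermediate and 0.07 in Pomc-high cells. Of the 97 cells with both, *Pcsk1* was the higher per kb in 60 and *Pcsk2* in 37. That count depends on the exon lengths used, 5.604 kb for *Pcsk1* and 7.91 kb for *Pcsk2*. The log2 ratio of *Pcsk1* to *Pcsk2* in RPM, without scaling to length, had a median of 0.14 and ran from -6.36 to 5.47. Cells with both thus ranged from a large excess of *Pcsk2* to a large excess of *Pcsk1*.

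**Figure D2:**
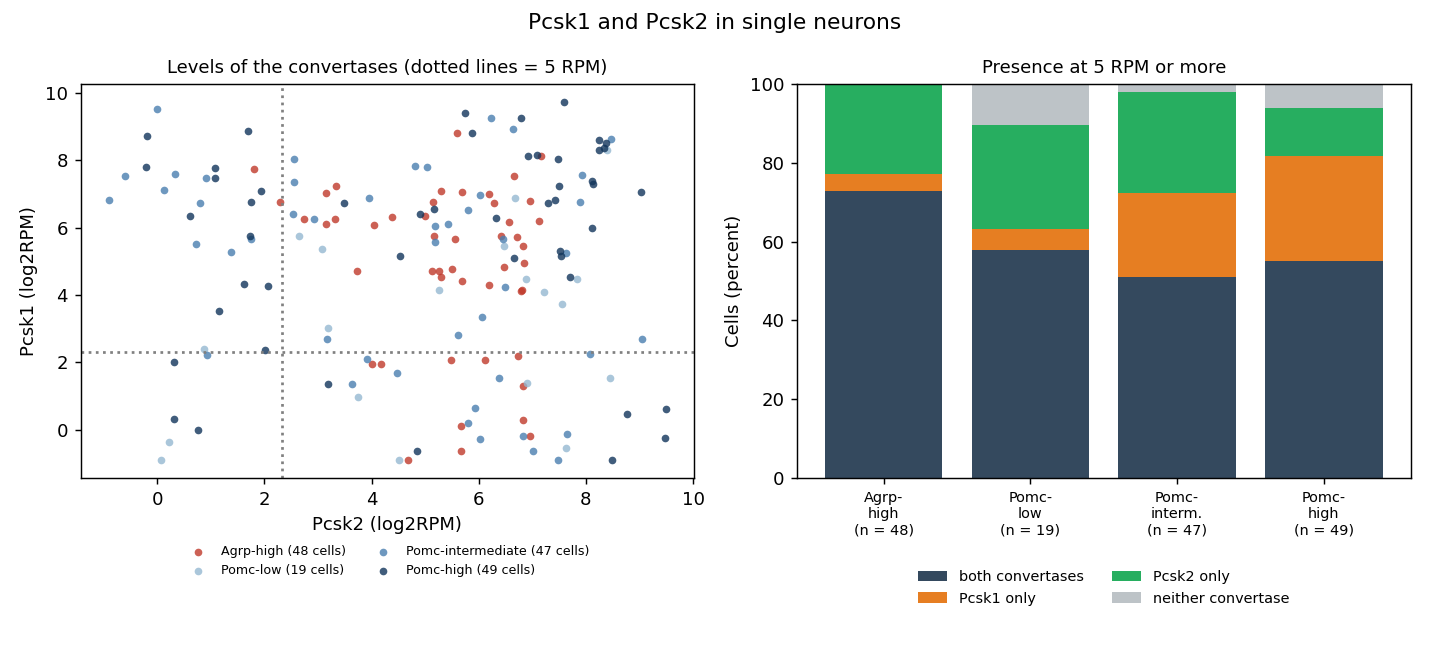
Left, *Pcsk1* against *Pcsk2* in log2RPM for each cell, coloured by group, with dotted lines at 5 RPM; right, the percent of cells of each group with both convertases, with either alone and with neither. The points of all cells together fill the plot with no diagonal trend (rho -0.04), and *Pcsk1* alone accounts for 2 of 48 Agrp-high and 13 of 49 Pomc-high cells.

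Between Agrp-high and Agrp-low cells, *Pcsk1n* was higher and *Vgf* lower, taking a difference of at least 1 in mean log2RPM as the limit. That is 1 of 9 members higher, against 8.65% of all genes, and 1 lower, against 2.94% of all genes. The members had a median difference of -0.06 log2RPM, and all genes one of 0.19 log2RPM. These shares move with the scaling: 74.6% of the genes past the limit were higher in Agrp-high cells in the deposited values, and 54.2% after rescaling by genes found in nearly every cell, which put the median of all genes at -0.03 log2RPM. Of the oligodendrocyte genes, *Mag* moved with these groups (present in 18 of 48 Agrp-high and 13 Agrp-low cells). The summed level of the 5 measured genes of that list ran from -0.91 through a median of 6.30 to 9.17 log2RPM in Agrp-high cells and from -0.19 through 5.62 to 17.08 log2RPM in Agrp-low cells. Of the pituitary genes, *Pou1f1* was present in 0 of 48 Agrp-high cells (which allows up to 6.25%) and 23 Agrp-low cells, and *Prl* in 3 of 48 and 21. Their sum ran from -0.58 through 1.39 to 5.44 log2RPM in Agrp-high cells and from -0.55 through 1.77 to 14.11 log2RPM in Agrp-low cells. *Pou1f1* had close medians, 1.28 and 1.46 log2RPM, and its highest Agrp-high value, 2.29 log2RPM, lay just under 5 RPM. Its highest value was 2.94 log2RPM in Pomc-low, 10.50 log2RPM in Pomc-intermediate and 3.39 log2RPM in Pomc-high cells. Of the tanycyte genes, *Vim* was present in 20 of 48 Agrp-high and 26 Agrp-low cells. *Rax* was present in 6 of 48 and 15, and *Col23a1* in 3 of 48 and 8, which are close shares. The summed level of these genes ran from -0.91 through 2.38 to 7.29 log2RPM in Agrp-high cells. In Agrp-low cells it ran from -0.91 through 0.59 to 8.28 log2RPM. The part of these genes in the differences was not tested.

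*Pcsk1n*, the proSAAS gene, ran from 8.94 through a median of 11.14 to 12.58 log2RPM in Agrp-high cells and from 6.55 through 9.42 to 11.51 log2RPM in Agrp-low cells. The ranges overlap, but 46 of 48 Agrp-high cells lay above the median of the Agrp-low cells and 15 above every one of them. The means were 11.07 ± 0.78 and 9.36 ± 1.06 log2RPM, a difference of 1.71 log2RPM. Per kb, *Pcsk1n* had a median of 1032 RPM in Agrp-high cells, above that of *Scg2* there (857 RPM per kb), and of 311 RPM in Agrp-low cells, below that of *Scg2* (1405 RPM per kb). Among Agrp-low cells it did not follow *Pomc*, with means of 9.27, 9.42 and 9.34 log2RPM in Pomc-low, Pomc-intermediate and Pomc-high cells. An overlapping gene on the other strand, *Eras*, shares 6.16% of its exon bases, and these libraries do not keep the strand.

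*Vgf*, whose peptides are released by many neurons and endocrine cells, was close to the floor in Agrp-high cells. There it ran from -0.91 through a median of 1.04 to 9.27 log2RPM, with 2 of 48 cells above 5 log2RPM, and in Agrp-low cells from -0.75 through 4.10 to 11.04 log2RPM, with 49 above 5 log2RPM. It was present in 13 of 48 Agrp-high cells (27.1%, interval 15.3% to 41.8%) and 73 Agrp-low cells (63.5%, interval 53.99% to 72.3%). The means of 1.45 ± 2.02 and 4.07 ± 3.16 log2RPM differed by -2.62 log2RPM.

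That difference was smaller when *Pomc* was held in the same range. Agrp-high cells had *Pomc* from 4.56 to 8.57 log2RPM, and 47 Agrp-low cells fell within that range. Set against these 47 alone, a comparison chosen after the values were seen, the difference of *Vgf* was -1.14 log2RPM (1.45 ± 2.02 in Agrp-high cells, 2.60 ± 2.72 log2RPM in the 47) and present in 13 of 48 against 20 of 47 cells. *Pcsk1n* was still higher, by 1.60 log2RPM. Again 1 member was higher and 1 lower, against 10.8% and 3.59% of all genes.

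The other members differed by less than the limit between Agrp-high and Agrp-low cells. *Cpe* averaged 10.14 ± 0.39 and 10.59 ± 0.78 log2RPM (difference -0.45) and *Scg2* 11.09 ± 0.64 and 11.63 ± 1.45 log2RPM (difference -0.53), with only 4 and 6 of 48 Agrp-high cells above the Agrp-low medians of these genes. The differences were 0.46 log2RPM for *Pam*, 0.08 for *Chga* and -0.06 for *Scg5*. In each of the 9 genes the SD over cells was smaller in Agrp-high than in Agrp-low cells. The share of all genes with a smaller SD there was not computed, so this is not a trait of the members. Agrp-low cells also cover a wider range of *Pomc*, from 1.01 to 16.06 log2RPM against 4.56 to 8.57 log2RPM in Agrp-high cells.

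**Figure D3:**
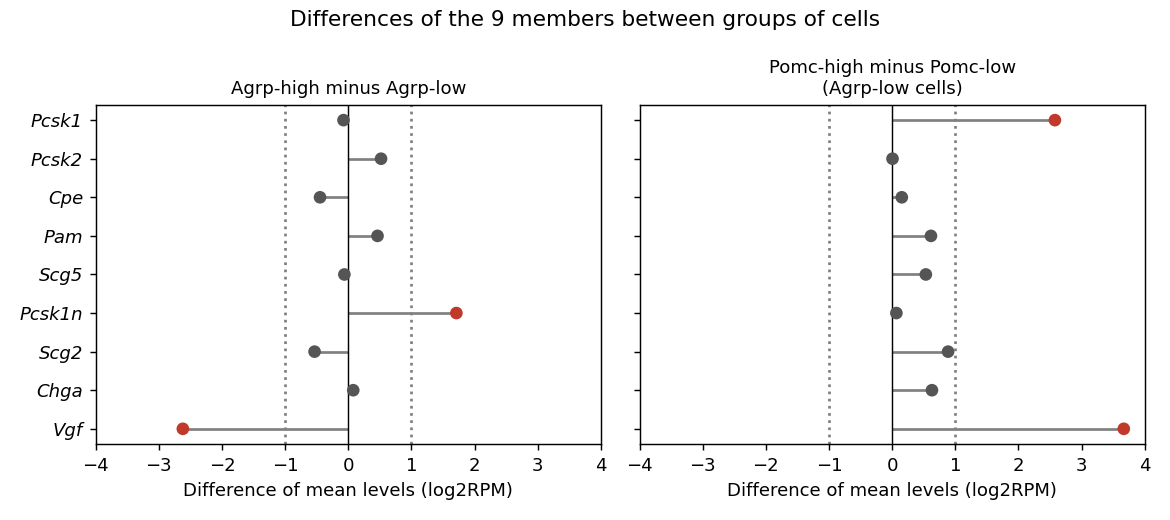
Differences in mean log2RPM for the 9 genes, left for 48 Agrp-high minus the Agrp-low cells and right for 49 Pomc-high minus 19 Pomc-low cells, with dotted lines at -1 and 1. Past these lines, in red, are *Pcsk1n* (1.71) and *Vgf* (-2.62) on the left and *Pcsk1* (2.58) and *Vgf* (3.67) on the right.

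Among Agrp-low cells, *Pcsk1* and *Vgf* were higher in Pomc-high than in Pomc-low cells. These were 2 of 9 members higher, against 7.62% of all genes, and none lower, against 8.51% of all genes. The difference was above 0 for all 9 members, with a median of 0.62 log2RPM, against -0.01 log2RPM for all genes. Over 10 alternatives *Pcsk1*, *Vgf* and *Scg2* stayed above 0, and each of the other 6 fell below 0 in at least 1. Other values moved with the same split. *Prl* was present in 12 of 49 Pomc-high cells and 0 of 19 Pomc-low cells, which allows a share of up to 15.8%. *Vim*, an intermediate filament gene, differed by 2.11 log2RPM, *Mbp* by -1.29 log2RPM and the synaptic vesicle gene *Syt1* by -3.58 log2RPM. The sum of the 2 measured pituitary genes, *Prl* and *Pou1f1*, ran from -0.55 through 1.60 to 7.74 log2RPM in Pomc-high cells and from 0.80 through 1.66 to 2.94 log2RPM in Pomc-low cells. Without the 24 cells with *Prl*, the difference was 3.81 log2RPM for *Vgf* and 2.97 log2RPM for *Pcsk1*.

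*Vgf* ran from -0.54 through a median of 2.0 to 7.62 log2RPM in Pomc-low cells, from -0.75 through 1.79 to 9.36 log2RPM in Pomc-intermediate cells and from -0.50 through 6.20 to 11.04 log2RPM in Pomc-high cells. The first groups were close, with means of 2.39 ± 2.81 and 2.68 ± 2.76 log2RPM, and the Pomc-high mean stands apart at 6.06 ± 2.53 log2RPM. It was present in 8 of 19 (42.1%), 20 of 47 (42.6%) and 45 of 49 cells (91.8%, interval 80.4% to 97.7%). Cut into 4 groups of rising *Pomc* level, the Agrp-low cells with *Vgf* numbered 13 of 29, 11 of 29, 23 of 29 and 26 of 28. By level of *Pomc*, *Vgf* was present in 24 of 58 cells up to 8.54 log2RPM of *Pomc*, in 4 of 8 between 8.54 and 10 log2RPM and in 45 of 49 from 10 log2RPM on.

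*Pcsk1* ran from -0.91 through a median of 3.72 to 8.31 log2RPM in Pomc-low cells, from -0.91 through 5.67 to 9.54 log2RPM in Pomc-intermediate cells and from -0.91 through 6.72 to 9.75 log2RPM in Pomc-high cells. Cells at the floor were found in all 3 groups, so the ranges overlap throughout, and 38 of 49 Pomc-high cells lay above the Pomc-low median. The means rose in order of *Pomc*, at 3.12 ± 2.72, 4.87 ± 3.03 and 5.70 ± 3.02 log2RPM, and the gene was present in 12 of 19, 34 of 47 and 40 of 49 cells. The difference of 2.58 log2RPM was uneven over the numbers in the cell titles, whose meaning no source gives: it was 3.13 in cells 1 to 66, 6.05 in cells 67 to 98 (15 Pomc-high and 4 Pomc-low cells) and 0.93 in cells from 99 on (24 and 5 cells).

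*Pcsk2* showed no such order over all cells, with means of 5.14 ± 2.79, 4.51 ± 2.75 and 5.14 ± 3.16 log2RPM in Pomc-low, Pomc-intermediate and Pomc-high cells. It was present in 16 of 19, 36 of 47 and 33 of 49 cells. The difference between Pomc-high and Pomc-low cells, 0.01 log2RPM, was 2.51 log2RPM within cells 67 to 98, -0.55 within cells from 99 on and 1.21 with *Pomc* limits of 6 and 12 log2RPM. In the 4 groups of rising *Pomc* level, *Pcsk2* was present in 23 of 29, 24 of 29, 15 of 29 and 23 of 28 cells. The third group (*Pomc* from 8.54 to 12.83 log2RPM) thus had the lowest share, 51.7% (interval 32.5% to 70.6%), against 82.8% (interval 64.2% to 94.2%) in the second. That group also had the most cells with *Prl*, 8 of 29 against 3, 5 and 5 in the others, and a median depth of 8.42 M reads, the highest of the 4. Their part in the lower share was not tested.

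Over all cells of these groups, the differences between Pomc-high and Pomc-low cells were under 1 log2RPM for the other members. They were 0.89 for *Scg2*, 0.63 for *Chga*, 0.62 for *Pam*, 0.53 for *Scg5*, 0.15 for *Cpe* and 0.07 for *Pcsk1n*. Some passed 1 log2RPM within a range of cell numbers: *Scg2* at 1.19 in cells 1 to 66, *Pam* at 1.78 and *Scg5* at 1.4 in cells 67 to 98, and *Chga* at 1.85 in cells from 99 on. All 9 members were present together in 7 of 19 Pomc-low (36.8%), 10 of 47 Pomc-intermediate (21.3%) and 25 of 49 Pomc-high cells (51.02%), and in 8 of 48 Agrp-high cells (16.7%). Leaving *Vgf* out turned the last of these around, since the other 8 were present together in 35 of 48 Agrp-high cells (72.9%) and 61 Agrp-low cells (53.04%).

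The relation of *Vgf* to *Pomc* held as a rank across single cells. Over the Agrp-low cells rho was 0.54, the third highest of 6828 genes present in at least 50% of cells, of which 2.21% reached 0.3. Over the 48 Agrp-high cells, where *Pomc* varied far less, rho was 0.35, at rank 66, and 0.25 without cells with 3 or more markers of other cell types. *Pcsk1* had rho 0.35 with *Pomc* in Agrp-low cells (rank 76) and -0.04 in Agrp-high cells. In Agrp-low cells it was 0.50 within cells 1 to 66, 0.37 within cells 67 to 98 and 0.15 within cells from 99 on, whereas that of *Vgf* was 0.48, 0.61 and 0.56. *Scg2* followed at 0.29 in Agrp-low cells (0.05 within cells 67 to 98), and the remaining 6 members lay between 0.06 and 0.20 there. These points share a transgene and a range of depths, and no source says whether they share a sort. The rho of *Vgf* with depth was 0.07 in Agrp-low and -0.25 in Agrp-high cells.

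**Figure D4:**
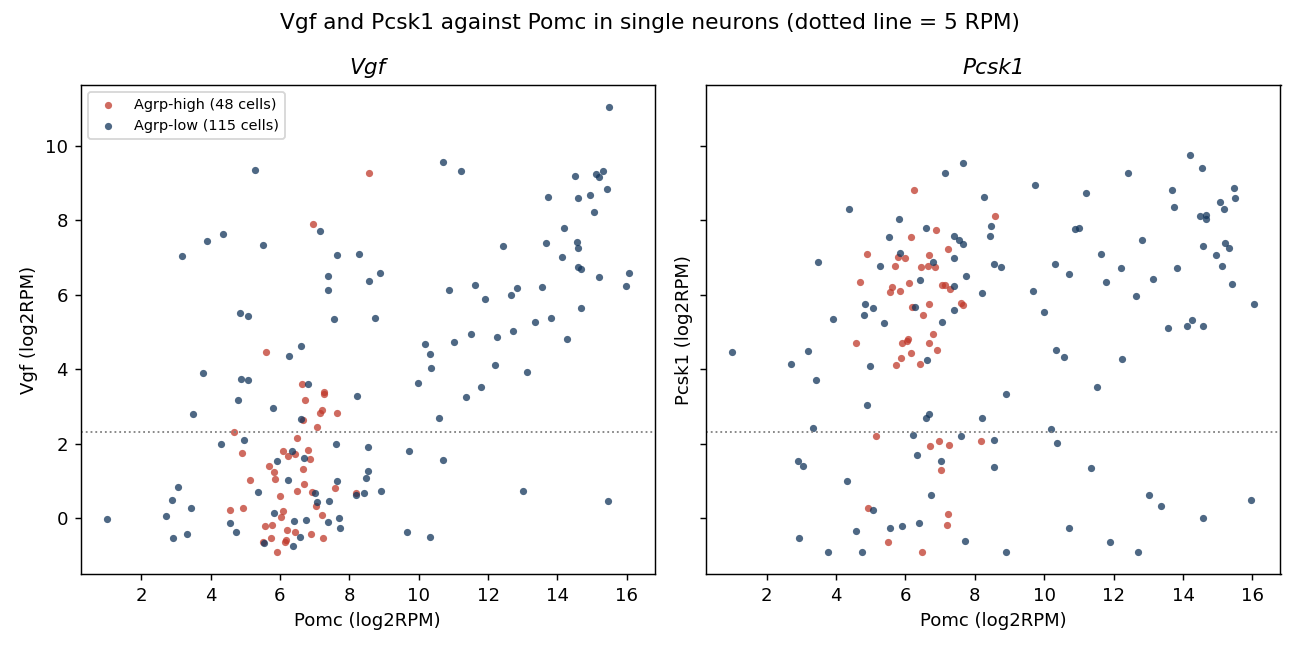
*Vgf* (left) and *Pcsk1* (right) against *Pomc*, each in log2RPM, for 48 Agrp-high (red) and the Agrp-low (blue) cells, with a dotted line at 5 RPM. *Vgf* climbs with *Pomc* above about 10 log2RPM (rho 0.54 in Agrp-low cells), whereas *Pcsk1* reaches high and floor values along the whole axis (rho 0.35).

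With *Npy*, the orexigenic peptide gene that Agrp-high cells express at 13.10 ± 0.95 log2RPM, the pattern was another. Within Agrp-high cells *Scg5* (rho 0.45, rank 34 of 6828) and *Scg2* (rho 0.44, rank 44) were higher where *Npy* was higher, and 4.72% of genes reached 0.3. *Pcsk1* (-0.28) and *Pam* (-0.26) had the lowest rho with *Npy* there, although that of *Pam* was 0.30 in the 11 Agrp-high cells numbered from 99 on. In Agrp-low cells, where *Npy* averaged 4.38 ± 2.30 log2RPM, the signs were opposite over all cells, at -0.29 for *Scg5*, -0.25 for *Cpe* and -0.24 for *Scg2*. Within cells 67 to 98 they were 0.26 for *Cpe*, 0.20 for *Scg2* and -0.12 for *Scg5*, and after rescaling by genes found in nearly every cell that of *Cpe* was -0.06. The rho of these genes with depth in Agrp-low cells was 0.23, 0.20 and 0.13.

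Cells with 1 convertase differed in the granins *Scg2* and *Vgf*. The 26 cells with *Pcsk1* alone were set against the 34 with *Pcsk2* alone, which leaves 7 members that the split did not use. *Scg2* and *Vgf* were higher in the cells with *Pcsk1* alone (2 members, against 9.91% of all genes) and *Pcsk1n* was lower (1 member, against 4.21% of all genes). *Chga* differed by 0.50 log2RPM and did not pass the limit.

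*Scg2* ran from 9.36 through a median of 12.48 to 14.08 log2RPM in cells with *Pcsk1* alone and from 7.01 through 11.06 to 13.28 log2RPM in cells with *Pcsk2* alone, with means of 12.29 ± 1.04 and 10.76 ± 1.42 log2RPM (difference 1.53). *Vgf* ran from -0.43 through 4.91 to 9.33 log2RPM in cells with *Pcsk1* alone and from -0.75 through 1.02 to 9.56 log2RPM in cells with *Pcsk2* alone, and was present in 20 of 26 and 11 of 34 cells (means 4.39 ± 2.83 and 2.04 ± 2.65 log2RPM, difference 2.35). Their ranges overlapped, with high values of each granin in both sets. *Pcsk1n* averaged 9.14 ± 1.21 and 10.28 ± 1.13 log2RPM, a difference of -1.13 log2RPM.

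The sets also differed in other respects. *Pomc* averaged 9.68 log2RPM in cells with *Pcsk1* alone and 7.33 log2RPM in cells with *Pcsk2* alone, Agrp-high cells made up 2 of 26 and 11 of 34, and *Prl* was present in 8 of 26 and 5 of 34. The median number of genes per cell was 7113 in cells with *Pcsk1* alone and 6653 in cells with *Pcsk2* alone, and 7017 and 5994 within Agrp-low cells. Within Agrp-low cells (24 and 23 cells) the difference was 1.76 log2RPM for *Scg2* and 2.44 log2RPM for *Vgf*, against 14.6% of all genes higher. It was -0.82 log2RPM for *Pcsk1n*, which no longer passed the limit (5.35% of all genes were lower). At a cut-off of 10 RPM it was -0.74 log2RPM. The part of *Pomc* level and of the number of genes in these differences was not tested.

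Across all pairs of members, the strongest relation was between *Pcsk1* and *Scg2*, with rho 0.45 over all cells. It came from the Agrp-low cells (0.56) and was -0.01 in the Agrp-high cells. *Cpe* with *Scg5* (0.45), *Cpe* with *Scg2* (0.44) and *Scg5* with *Scg2* (0.41) were next, a set of abundant granule proteins. *Pcsk2* had its highest rho among the members with *Pam* (0.35), not with *Scg5*, the gene of its own chaperone (0.05). *Pcsk1n* and *Vgf* had the lowest rho, -0.37 over all cells but -0.15 within Agrp-low cells and -0.16 within Agrp-high cells.

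Searching 6829 genes for the most similar pattern over all cells gave for *Vgf* its highest rho with *Pomc* itself (0.53), followed by *Pdyn*, the prodynorphin gene (0.51), and the granin *Chgb* (0.46). For *Pcsk1* the closest genes were *Scg2* (0.45) and *Gpx3*, a secreted glutathione peroxidase (0.45), and for *Pcsk2* the calcium channel subunit *Cacna2d2* (0.44). For *Scg2* it was the tetraspanin *Tspan13* (0.58), and for *Cpe* the membrane protein *Itm2c* and the lysosomal protease *Ctsb* (0.54 each). *Pcsk1n* was closest to *Atp6v0d1*, a subunit of the proton pump that acidifies granules (0.62), yet within Agrp-high and within Agrp-low cells that rho was 0.13 and 0.34. Both of these genes were higher in Agrp-high cells.

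Of the 7 members searched, *Pcsk1* and *Scg2* held a full cAMP response element, TGACGTCA, in their start regions. Any part of this element in the levels of the pair was not tested. The 250 bases before the start were searched on both strands in RefSeq promoters of mouse (GRCm38.p6), which were found for 7 of the 9 members and were not used for *Cpe* and *Vgf*. The motifs were chosen with the values known. TGACGTCA was found in 508 of 32851 promoters (1.55%), at position -78 in *Pcsk1* and -68 in *Scg2*, counted from the RefSeq start. That start lies 31 bases inside the *Pcsk1* gene and 64 bases inside the *Scg2* gene of the deposited table, so that the *Scg2* match overlaps the end of the gene as the table has it. For *Pcsk2* it lies 10657 bases inside the gene of the table, so the search there covers the RefSeq start only. The shorter TGACGT, contained in it, was found in 2125 promoters (6.47%), and was also on the strand of the gene in *Chga* (-44), *Scg5* (-175) and once more in *Pcsk1* (-50). Neither was found in *Pam*, *Pcsk2* or *Pcsk1n*. A match is a sequence feature only. The stretches are shown on the strand of the gene, with the matches in capitals, to set the motif in the pair beside its short form in *Chga* and a stretch of *Pcsk2* without it: *Pcsk1* at chr13:75089737-75089825 (plus strand), *Scg2* at chr1:79440076-79440105 (minus strand), *Chga* at chr12:102554821-102554940 (plus strand) and *Pcsk2* at chr2:143546013-143546132 (plus strand).
Pcsk1: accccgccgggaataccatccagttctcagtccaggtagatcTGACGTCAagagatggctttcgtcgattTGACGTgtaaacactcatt
Scg2: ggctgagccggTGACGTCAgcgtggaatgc
Chga: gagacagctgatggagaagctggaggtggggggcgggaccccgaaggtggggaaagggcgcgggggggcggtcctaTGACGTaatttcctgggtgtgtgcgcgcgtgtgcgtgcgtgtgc
Pcsk2: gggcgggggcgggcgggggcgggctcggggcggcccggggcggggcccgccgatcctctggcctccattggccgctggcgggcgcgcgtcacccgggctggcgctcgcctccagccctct

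The genes themselves lie apart, in GRCm38 coordinates of the deposited table. *Cpe* (ENSMUSG00000037852) spans chr8:64592558-64693040 and *Pam* (ENSMUSG00000026335) chr1:97795114-98095646. *Scg5* (ENSMUSG00000023236) spans chr2:113776362-113829121 and *Pcsk1n* (ENSMUSG00000039278) chrX:7919822-7928607. *Scg2* (ENSMUSG00000050711) spans chr1:79434669-79440090, *Chga* (ENSMUSG00000021194) chr12:102554969-102565027 and *Vgf* (ENSMUSG00000037428) chr5:137030295-137033351. *Pcsk2* shares 3.29% of its exon bases with *Pcsk2os1* on the other strand.

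Other genes of the pathway come from lists chosen by function, and their counts stand beside the shares of all genes given above: 8.65% higher and 2.94% lower between Agrp-high and Agrp-low cells, and 7.62% higher and 8.51% lower between Pomc-high and Pomc-low cells. The 7 other convertases and proteases included 1 that passed the limit between Agrp-high and Agrp-low cells, *Pcsk5*, a convertase of the constitutive pathway (-0.10 log2RPM in Agrp-high and 0.98 log2RPM in Agrp-low cells, difference -1.07). *Furin* was near the floor in each (-0.16 and 0.05 log2RPM). The cysteine protease *Ctsl*, which also cuts prohormones, was present in every cell.

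Among 4 other granins and lumen proteins, *Resp18* was higher in Agrp-high cells (12.25 and 11.01 log2RPM, difference 1.24). *Chgb*, or chromogranin B, and *Nucb2*, the precursor of nesfatin, were higher in Pomc-high than in Pomc-low cells, by 1.16 and 1.98 log2RPM, so that 2 of 4 passed there. Of the 4 measured trimming and modifying enzymes, the aminopeptidase *Rnpep* was higher in Agrp-high cells (by 1.08 log2RPM) and *Qpct*, which forms pyroglutamate at peptide ends, in Pomc-high cells (by 1.16 log2RPM).

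Of 13 genes of the granule membrane and release, with a median difference of 0.15 log2RPM against 0.19 log2RPM for all genes, 1 passed the limit between Agrp-high and Agrp-low cells, the calcium sensor *Syt7* (higher by 1.85 log2RPM). Between Pomc-high and Pomc-low cells *Sytl4* (granuphilin, 1.7 log2RPM) and *Ptprn2* (phogrin, 1.10 log2RPM) were higher and *Syt7* was lower (-1.23 log2RPM). Of the 10 proton pump genes, *Atp6v0d1* passed the limit between Agrp-high and Agrp-low cells (1.58 log2RPM higher) and no gene did between Pomc-high and Pomc-low cells. Of 6 peptide-degrading enzymes none passed between Agrp-high and Agrp-low cells, while *Ece1* was higher (1.2 log2RPM) and *Thop1* lower (-1.47 log2RPM) in Pomc-high than in Pomc-low cells.

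Of the 6 measured transcription factors of the list, 1 was higher and 2 were lower in Agrp-high cells and 3 were higher in Pomc-high cells, where the median difference of the list was 1.04 log2RPM, against -0.01 log2RPM for all genes. *Nhlh2*, a helix-loop-helix factor known to act on the *Pcsk1* promoter in mice, was present in 0 of 48 Agrp-high cells (which allows up to 6.25%) and 38 Agrp-low cells, and in 25 of 49 Pomc-high and 3 of 19 Pomc-low cells. *Creb3l1*, a membrane-bound factor of secretory cells, differed by -1.89 log2RPM between Agrp-high and Agrp-low cells and by 1.59 log2RPM between Pomc-high and Pomc-low cells. *Creb3l2* was also higher in Pomc-high cells (1.09 log2RPM). *Foxo1*, a factor that insulin signalling restrains, was higher in Agrp-high cells by 3.64 log2RPM, present in 45 of 48 Agrp-high and 34 Agrp-low cells.

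A few Agrp-low cells stood far below the rest in the abundant members. A Pomc-intermediate cell had *Cpe* at 5.75, *Scg5* at 4.99, *Pcsk1n* at 6.60 and *Scg2* at 7.41 log2RPM. It also had 7 of 12 markers of other cell types, the oligodendrocyte gene *Mobp* at 13.35 log2RPM, and *Snap25* at only 5.76 log2RPM. Another Pomc-intermediate cell had *Scg5* at 5.28 log2RPM, with *Pdgfra* and *Olig1*, of oligodendrocyte precursors, at 10.88 and 11.27 log2RPM. A Pomc-low cell had *Scg2* at 7.01 log2RPM and *Pdgfra* at 10.96 log2RPM. They had 6, 9 and 7 of the 9 members at 5 RPM or more, so presence alone did not set these cells apart. The part of other cell types in their low values was not tested.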

How the data were processed

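Single-end reads of SMART-Seq v4 libraries were demultiplexed with CASAVA 1.7, aligned to GRCm38 with TopHat2 2.0.11 and counted with Cufflinks 2.2.1, per the labels, and normalized with edgeR and limma (versions not given in the sources used here). The study's methods also name a correction for batches; whether the deposited values carry it, and which cells formed a batch, is not stated in the sources used here. The deposited log2 values are log2RPM, to which the authors had added a prior count; the 163 columns and 12187 genes were taken unaltered. All value columns matched a cell. The floor of -0.91 log2RPM (0.532 RPM) stands for 0 reads. The depth of a cell was read from the spacing of its low values; on that scale 99.3% of values of 1 to 20 reads fell within 0.1 of an integer. Calls near 5 RPM are weakest where depth is lowest.

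Groups were cut at 10 log2RPM of *Agrp* and at 5 and 10 log2RPM of *Pomc*. Members, gene lists, motifs and limits were chosen with earlier results of these data known. Higher or lower means a difference of at least 1 in mean log2RPM; the shares of all genes past this limit stand beside the counts of members. With 1 sample no test was run. Named genes are the 9 members, genes of the pathway lists past the limit and examples from them, and some of the 5 genes closest to each member by Spearman rho. Lengths are unions of GENCODE M21 exons. The gene bounds there differ from those of the deposited table for some members (*Vgf* starts at 137026392 in GENCODE M21 and at 137030295 in the table), which limits the ranking per kb. Alternatives were cut-offs of 1 and 10 RPM or above the floor, added constants of 0.1 and 5 RPM, other *Agrp* limits (8 and 11) and *Pomc* limits (6 and 12), scaling to the 2711 genes that 90% of cells or more had, leaving out 69 cells with 3 or more markers of other cell types, 17 cells with the fewest genes or (added after the values were seen) 24 cells with *Prl*, ranges of cell numbers, and thinning to 3.85 M reads, which left out 17 cells (3 Agrp-high and 14 Agrp-low). The difference and depth steps were tested on simulated data. Python 3.11.15 was used with numpy 2.4.6, pandas 2.3.3, scipy 1.17.1 and matplotlib 3.10.9.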

Additional observations from a re-analysis of the deposited data

How the results depend on the processing

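The joint presence of the convertases depended on the cut-off: both were present in 87.1% of cells at 1 RPM, 50.9% at 10 RPM and 96.3% at any value above the lowest, and at least 1 in 100% of cells at 1 RPM and at any value above the lowest, against 59.5% and 96.3% at 5 RPM. All 9 members were together in 75.5% of cells at 1 RPM, 22.7% at 10 RPM and 95.1% at any value, against 30.7%. Between Pomc-high and Pomc-low cells, *Pcsk1* differed by 6.05 within cells 67 to 98 and by 0.93 within cells from 99 on. For *Pcsk1n* the difference between cells with *Pcsk1* alone and *Pcsk2* alone was -0.74 at 10 RPM and -0.82 in Agrp-low cells. In Agrp-high cells, *Scg5* had rho 0.66 with *Npy* without cells with 3 or more markers of other cell types, and *Scg2* had rho 0.65 within cells from 99 on. The cause of these changes was not tested. Over the 13 alternatives the difference between Agrp-high and Agrp-low cells kept its sign and its side of the limit for *Vgf* (-4.54 within cells 67 to 98 to -1.14 within the *Pomc* range of Agrp-high cells) and for *Pcsk1n* (1.48 to 2.23), and over 10 alternatives the difference between Pomc-high and Pomc-low cells did so for *Vgf* (2.57 at a pseudocount of 5 RPM to 6.22 within cells 67 to 98). Over genes present in at least 10% of cells, 9.22% were higher and 3.14% lower in Agrp-high cells and 8.04% higher and 8.82% lower in Pomc-high cells. Only 5 Agrp-high cells lie among cells 67 to 98, so no relation was computed in them. A share at 5 RPM in the shallowest cell, of 1.46 M reads, rests on few reads. No paired analysis was possible because the labels name no animal, batch or replicate, and no replicate could be left out because the cells stand as 1 sample.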
